A study of Homo sapiens with 6 samples.

Results

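Ribosome biogenesis factors are the proteins that modify, fold, cut and package ribosomal RNA (rRNA) but do not stay in the finished ribosome. The mRNAs of 59 such factors, chosen by gene symbol for their known roles, were followed among 60664 annotated genes in the polysomal RNA of K562 cells with and without RNH1, the ribonuclease inhibitor. K562 is a human erythroleukemic cell line. It was sequenced as 3 RNH1 WT and 3 RNH1 knockout (RNH1 KO) samples, the KO having been made with CRISPR/Cas9, and whether the KO cells come from 1 clone is not stated in the sources used here. All 6 samples were lysed with cycloheximide, which holds ribosomes on the mRNA, and RNA was taken from the polysome fractions of sucrose gradients loaded with equal optical density. The methods call the 3 replicates of each genotype independent without saying whether they were separate cultures or clones, so how much of the spread behind the p-values is biological is not known.

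Ribosome assembly starts in the nucleolus on the nascent rRNA precursor. Small nucleolar ribonucleoproteins (snoRNPs) guide chemical changes to the rRNA, the box H/ACA class turning uridine into pseudouridine and the box C/D class adding methyl groups to ribose. The small-subunit processome, built around the U3 snoRNA, folds and cuts the precursor of the small-subunit rRNA. Later factors mature the 40S and 60S subunits and carry them to the cytoplasm, and the abundant nucleolar proteins NCL and NPM1 act as chaperones on the way. Such work is heavy in fast-growing blood cells, and inherited defects in several of these factors cause bone marrow failure.

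The values are normalized counts, that is, gene counts divided by 1 size factor per sample. They are set against all other transcripts in the same library, and would not show a gain or loss of polysomal RNA that all transcripts share, and in a bulk sample fewer cells holding a transcript and less of it per cell cannot be told apart. Polysomal abundance also depends both on how much mRNA there is and on how much of it carries ribosomes. RNH1 itself, which checks the labels, had normalized counts of 4566, 2857 and 1865 in WT replicates 1 to 3 and of 1058, 1144 and 997 in KO replicates 1 to 3. All KO samples were thus below all WT samples, with a log2 fold change (KO over WT, here and below) of -1.44 (standard error, SE, 0.26, adjusted p = 0.000338, limma). Reads in genes ranged from 34908202 to 46256928 per sample, and 3 reads equal 2.58 to 3.40 normalized counts. The labels call the cells lymphoblast, but of 10 erythroid markers 9 were present (HBE1 was at 0 throughout) and summed to between 116470 and 122329 normalized counts in WT and between 85426 and 97165 in KO. Much of this sum was TFRC, with 45667 to 60451 in WT and 41045 to 54753 in KO. The 10 lymphoid markers summed to between 2712 and 3354 in WT and between 4171 and 4778 in KO, with MS4A1 and IL7R at 0. The 6 myeloid markers summed to between 4970 and 6153 in WT and between 5039 and 5784 in KO. The 8 non-blood markers summed to between 3117 and 5509 in WT and between 3312 and 3850 in KO. Most of that was EPCAM, with 3021 to 5406 in WT and 3225 to 3758 in KO. The libraries also differed in short noncoding RNAs, which are not translated and took 3.32%, 0.974% and 3.44% of the reads in WT replicates 1 to 3 and 0.656%, 0.602% and 0.585% in KO replicates 1 to 3. WT replicate 2 therefore stood apart from the other WT samples and lay closer to KO. The part of these shares and of the marker levels in the results below was not tested.

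All 59 mRNAs were abundant enough to be tested. Of them, 13 were lower and 7 were higher in RNH1 KO, and 39 did not pass the test (limma on log2(normalized count + 1), Benjamini-Hochberg adjusted p under 0.1 over the 16652 genes with a mean of at least 10). As a background, 48.2% of all genes tested passed, 24.1% lower and 24.1% higher, while of the biogenesis factors 33.9% passed, 22.0% lower and 11.9% higher. At an unadjusted p under 0.05 the same 20 passed. The median over the factors was a log2 fold change of -0.03 (quartiles -0.36 and 0.18, range -2.60 to 1.39), against 0.03 for all genes tested (quartiles -0.54 and 0.57). For 41 of the 59 the log2 fold change lay between -0.5 and 0.5. All KO samples were below all WT samples for 14 factors and above them for 3, and the groups overlapped for 42, whereas over all genes tested 25.5% had KO below WT and 25.6% had KO above WT (51.1% either way). On the recovered reads edgeR and DESeq2 both called 14 factors lower and 7 higher, among 25.7% and 25.3% of all genes lower and 22.5% and 22.8% higher (48.2% and 48.1% either way). The number of higher calls rested on single samples: it was 2 without WT replicate 3, 3 without KO replicate 2 and 1 without KO replicate 3. Fewer genes passed in general in these fits: 21.5%, 17.1% and 17.0% of all genes were higher, against 24.1% with all samples. Without WT replicate 2, 12 factors were lower and 9 higher, with 26.2% and 27.0% of all genes, and the median over the factors was 0.07. DKC1 and UTP20 then passed as higher and RPF2 no longer passed. The number of lower calls stayed between 11 and 15 whichever sample was left out, where 18.3% to 26.2% of all genes were lower.

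The factors together took 0.980%, 1.37% and 1.00% of all gene reads in WT replicates 1 to 3 and 1.24%, 1.26% and 1.41% in KO replicates 1 to 3. The WT and KO ranges overlapped through WT replicate 2. Without NPM1, the most abundant member, the shares were 0.763%, 0.931% and 0.726% in WT and 1.03%, 1.05% and 1.17% in KO, and the KO samples were all above the WT samples. Shares of reads depend on what else is in a library: the mRNAs of ribosomal proteins took 13.0%, 10.5% and 13.9% of the reads in WT and 5.19%, 5.29% and 4.84% in KO. Scaling by the library total in place of the deposited size factors shifted the median over all genes tested from 0.03 to 0.35 on the log2 scale and the median over the biogenesis factors to 0.30. It left 9 factors lower and 19 higher (15.3% and 32.2%), among 2419 lower and 6618 higher genes in all (14.5% and 39.7%). The median of the factors was thus close to that of all genes under both scalings.

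**Figure D1:**
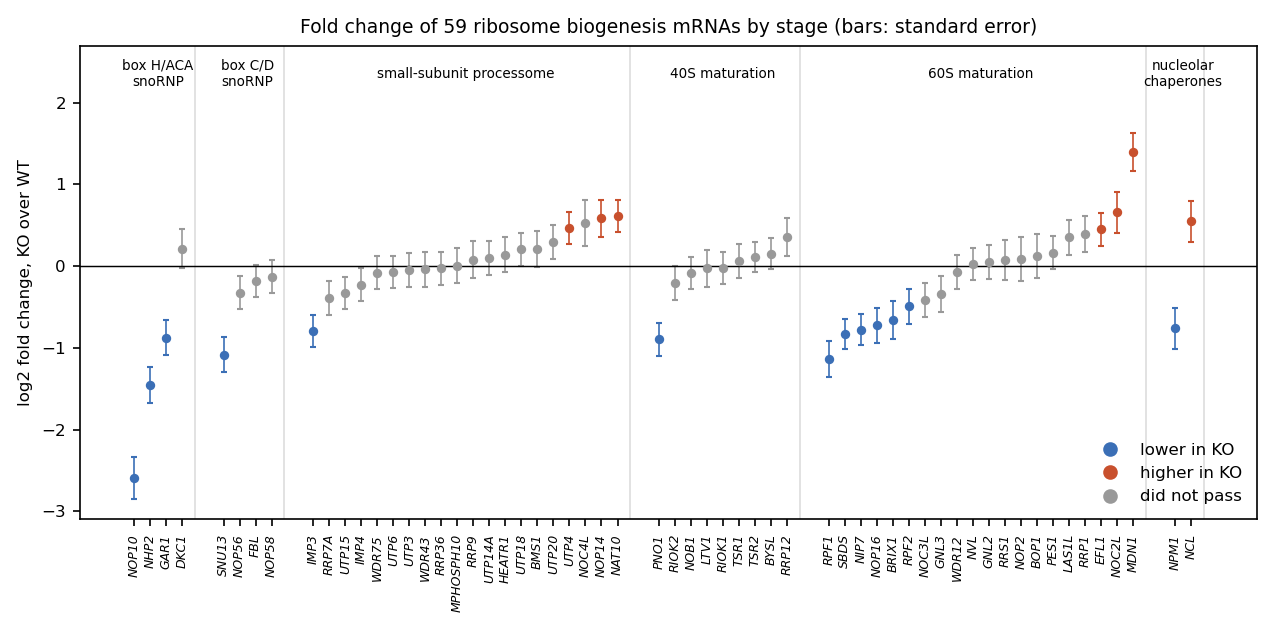
Log2 fold change of polysomal abundance (KO over WT, vertical axis) of each of the 59 biogenesis factors, ordered within 6 stages, with standard errors as bars. Points mark 13 mRNAs lower in KO, 7 higher and 39 that did not pass the test, with NOP10 lowest at -2.60 and MDN1 highest at 1.39.

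Sequence near the transcription start was read from RefSeq (GRCh38.p14), as windows from 250 bases before to 50 bases after each start, which matched 52 of the 59 factors. NOP58, SNU13, MPHOSPH10, RRP12, BOP1, RPF2 and RRS1 were not matched. The E-box CACGTG, a palindrome that MYC and related factors bind, was in a window of 22 of the 52 factors (42.3%), of 30.1% of 73 further pathway genes of 12.8% of 9598 protein-coding genes tested and of 8.77% of all 27305 genes with such a window, a gene with several windows counting once. The windows below show it in the factor with the lowest fold change (NOP10), in the one with the highest (MDN1) and in a lower and a higher factor of the small-subunit pathway (PNO1 and NAT10), with the E-box in capitals and each written on the strand of its gene:
NOP10, chr15:34343130-34343159, minus strand: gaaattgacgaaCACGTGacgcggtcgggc
MDN1, chr6:89819750-89819779, minus strand: cgtgtgctcaccCACGTGtggtgcccctct
PNO1, chr2:68157885-68157914, plus strand: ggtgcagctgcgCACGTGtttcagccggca
NAT10, chr11:34105602-34105631, plus strand: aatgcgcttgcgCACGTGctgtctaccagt
The letters were thus in factors that moved in opposite directions. The 22 factors with an E-box had a median log2 fold change of 0.08 (3 lower, 4 higher, 15 not passing) and the 30 without one of -0.07 (8 lower, 3 higher, 19 not passing). As a background, 24.1% of all genes tested were lower and 24.1% higher. The difference between these sets was not tested. A match describes the letters and is no evidence of binding.

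A pyrimidine tract that begins with C at the start of the transcript marks the mRNAs of ribosomal proteins, whose translation is known to follow growth signals. A C at the RefSeq start followed by at least 4 more pyrimidines was found in 74.6% of 63 ribosomal protein genes in 7.63% of the protein-coding genes tested and in 5.14% of all genes with a window. Among the biogenesis factors it was found in 4 of 52 (7.69%), namely FBL, UTP14A, NOB1 and NPM1. The tract of the most abundant factor, NPM1, and that of FBL are shown with the run of pyrimidines from the start in capitals, each on the strand of its gene:
NPM1, chr5:171387834-171387863, plus strand: cggggagcctgcgtcCTTTCCCTggtgtga
FBL, chr19:39846365-39846394, minus strand: ccgcgcgcctgcgctCTTTTCCacgtgcga
In FBL the tract overlaps an E-box. Of these 4, NPM1 was lower in KO and the others did not pass. By contrast with the biogenesis factors, 75 of 79 ribosomal protein mRNAs were lower, with a median log2 fold change of -1.62. Over all genes tested 24.1% were lower. The lists were not matched for coding length, which is taken up below, and the part of the tract in the difference was not tested. The RefSeq start need not be the start used in K562 cells.

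Box H/ACA snoRNPs had the lowest median of the 6 stages. Of the 4 core proteins, 3 were lower in RNH1 KO and 1 did not pass, with a median log2 fold change of -1.16. Over all genes tested 24.1% were lower and 24.1% higher. The 3 lower ones have coding lengths of at most 651 nucleotides. Of all protein-coding genes with at most 1000 coding nucleotides, 51.8% were lower, as taken up below. These proteins bind every H/ACA guide RNA and are also part of telomerase. NOP10, the smallest of them, is a linker that contacts the catalytic subunit. Its gene (ENSG00000182117) sits on chromosome 15 (GRCh38, 34339159 to 34343180, minus strand), with 2 exons and a coding length of 192 nucleotides. NOP10 mRNA had 8806, 4027 and 9110 normalized counts in WT replicates 1 to 3 and 1180, 1175 and 1054 in KO replicates 1 to 3. WT replicate 2 was lower than the other WT samples, and all KO samples lay well below it. The WT mean was 7314 ± 2851 and the KO mean 1136 ± 71.4 (SD, n = 3 each), or 15.5% of WT (log2 fold change -2.60, SE 0.26, adjusted p = 1.19e-06, limma).

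NHP2 is an RNA-binding core protein (chromosome 5, 178149463 to 178153894, minus strand, coding length 459 nucleotides). It had 5956, 4352 and 7631 normalized counts in WT replicates 1 to 3 and 1991, 2318 and 2089 in KO replicates 1 to 3. All KO samples were below all WT samples, at 35.7% of the WT mean (log2 fold change -1.45, SE 0.22, adjusted p = 7.22e-05, limma). Its span overlaps that of RMND5B on the other strand, which went the other way, with 2109 to 2942 normalized counts in WT and 3850 to 4381 in KO. GAR1, which helps load and release the substrate rRNA, had 1756, 2027 and 2839 normalized counts in WT and 1029, 1280 and 1246 in KO, again without overlap, at 53.7% of WT (log2 fold change -0.87, SE 0.21, adjusted p = 0.0037, limma). DKC1 encodes dyskerin, the pseudouridine synthase itself, and has a coding length of 1542 nucleotides, longer than the other 3. It had 7076, 10456 and 5525 normalized counts in WT and 8173, 7912 and 9852 in KO, and the groups overlapped. Its log2 fold change was 0.21 (SE 0.24, adjusted p = 0.493, limma). Without WT replicate 2, its highest sample, DKC1 passed as higher, at 0.46 (adjusted p = 0.0621, limma). The catalytic subunit thus did not pass in the full data while its 3 small partners were lower, and the difference between them was not itself tested.

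**Figure D2:**
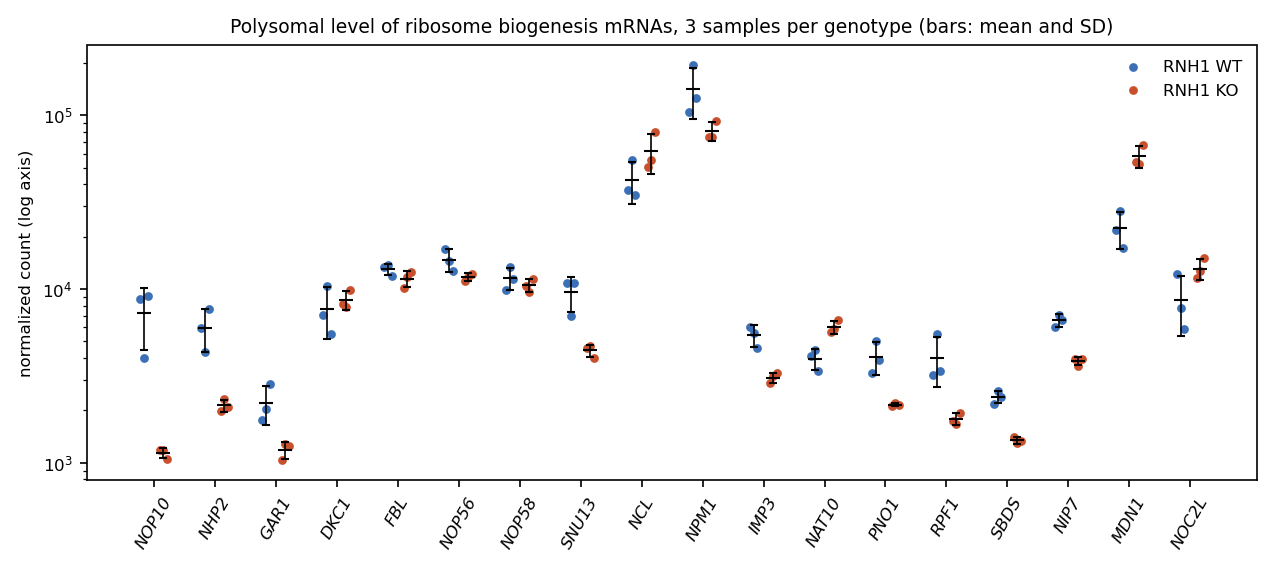
Normalized counts (log axis) of 18 biogenesis mRNAs in the 3 RNH1 WT and 3 RNH1 KO samples, as points, with mean and SD as bars. NOP10 spans 4027 to 9110 in WT and 1054 to 1180 in KO, MDN1 is higher in every KO sample than in any WT sample, and DKC1 and FBL overlap.

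Of the 4 core proteins of box C/D snoRNPs, 1 was lower and 3 did not pass, with a median log2 fold change of -0.25. That share was near the 24.1% of all genes tested that were lower. SNU13 binds the kink-turn of the guide RNA and starts assembly, and is also a protein of the spliceosome. It had 10865, 7002 and 10750 normalized counts in WT replicates 1 to 3 and 4553, 4704 and 4023 in KO replicates 1 to 3. All KO samples were below all WT samples, at 46.4% of the WT mean (log2 fold change -1.08, SE 0.22, adjusted p = 0.00091, limma). SNU13 (chromosome 22, 41673933 to 41690504, minus strand) has the shortest coding length of the 4, at 384 nucleotides. FBL, the methyltransferase fibrillarin, had 13364, 13722 and 11841 normalized counts in WT and 10154, 11738 and 12473 in KO, with overlap (log2 fold change -0.18, SE 0.20, adjusted p = 0.495, limma). NOP56 and NOP58 are the paired scaffold proteins. NOP56 had 17009, 14433 and 12728 normalized counts in WT and 11039, 11717 and 12266 in KO, and although the groups did not overlap it did not pass the test (log2 fold change -0.33, adjusted p = 0.218, limma). NOP58 had 9888, 13299 and 11365 in WT and 10402, 9593 and 11448 in KO, with overlap (log2 fold change -0.13, adjusted p = 0.645, limma).

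In the small-subunit processome 1 of 20 mRNAs was lower, 3 were higher and 16 did not pass, with a median log2 fold change of 0.04. Both shares were below those of all genes tested, of which 24.1% were lower and 24.1% higher. IMP3, a small protein that helps U3 pair with the rRNA precursor, was the lower one. It had 6071, 5551 and 4565 normalized counts in WT replicates 1 to 3 and 2857, 3141 and 3269 in KO replicates 1 to 3, without overlap (log2 fold change -0.80, SE 0.20, adjusted p = 0.00399, limma). Its partners in the same U3 subcomplex, IMP4 and MPHOSPH10, were at -0.23 and 0.01 and did not pass. NAT10, the acetyltransferase that modifies cytidines of the small-subunit rRNA, had 4103, 4452 and 3351 normalized counts in WT and 5619, 5860 and 6631 in KO, all KO samples being higher (log2 fold change 0.61, SE 0.20, adjusted p = 0.021, limma). It did not pass without KO replicate 3 (adjusted p = 0.132, limma). UTP4, a subunit of the UTP-A complex that first binds the precursor, had 4786, 4979 and 3806 in WT and 6201, 5784 and 6696 in KO, also without overlap (log2 fold change 0.47, SE 0.20, adjusted p = 0.0691, limma).

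NOP14, which binds the growing small subunit together with NOC4L, had 2850, 4308 and 2596 normalized counts in WT and 3968, 4705 and 5751 in KO. WT replicate 2 overlapped the KO samples (log2 fold change 0.58, SE 0.23, adjusted p = 0.0487, limma). Both UTP4 and NOP14 lost the call without WT replicate 3 (adjusted p = 0.162 and 0.165), without KO replicate 2 (0.152 and 0.113) and without KO replicate 3 (0.264 and 0.234). UTP4 also lost it without KO replicate 1 (0.184) and NOP14 without WT replicate 1 (0.114). The stage then had 1 higher mRNA without WT replicate 3, 1 without KO replicate 2 and 0 without KO replicate 3, against 3 in the full data. Of all genes tested 21.5%, 17.1% and 17.0% were higher in these fits, against 24.1% in the full data. The stage had 2 lower mRNAs without WT replicate 1 or WT replicate 3, where 26.1% and 21.9% of all genes were lower. Of the other members that did not pass, those below 0 were RRP7A (-0.39), UTP15 (-0.33), WDR75 (-0.08), UTP6 (-0.07), UTP3 (-0.05), WDR43 (-0.04) and RRP36 (-0.03). Those above 0 were RRP9 (0.08), UTP14A (0.10), HEATR1 (0.14), UTP18 (0.20), BMS1 (0.21), UTP20 (0.30) and NOC4L (0.53), all as log2 fold changes. Without WT replicate 2 UTP20 passed as higher, at 0.44 (adjusted p = 0.0509, limma), which made 4 higher mRNAs and a median of 0.16 for the stage. In that fit 27.0% of all genes were higher. RRP7A and BMS1 have pseudogenes that sum to 24.1% and 16.8% of their levels, so their values are uncertain. NOC4L had a wide spread within WT, with 2826, 1894 and 958 normalized counts against 2319, 2536 and 2608 in KO.

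For the maturation of the 40S subunit, 1 of 9 mRNAs was lower and 8 did not pass, with a median log2 fold change of -0.02. The share that was lower was below the 24.1% of all genes tested. PNO1, which sits at the site where the end of the small-subunit rRNA is cut, had 3292, 4988 and 3905 normalized counts in WT replicates 1 to 3 and 2114, 2190 and 2158 in KO replicates 1 to 3. The KO samples lay close together and below all WT samples, at 53.0% of the WT mean (log2 fold change -0.89, SE 0.20, adjusted p = 0.00215, limma). NOB1, the nuclease that makes that cut, had 5381, 4596 and 4056 normalized counts in WT and 4029, 4392 and 4782 in KO, with overlap and a log2 fold change of -0.08. The kinases RIOK1 and RIOK2 were at -0.02 and -0.21, the export and assembly factors LTV1, TSR1, BYSL and RRP12 at -0.03, 0.06, 0.15 and 0.36, and TSR2, a chaperone of a small-subunit protein, at 0.11. None of these 8 passed in the full data, and 1 was higher without WT replicate 1, where 26.4% of all genes were higher. Without WT replicate 2 the median of the stage was 0.13.

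Of 20 mRNAs for the maturation of the 60S subunit, 6 were lower and 3 higher, while 11 did not pass, with a median log2 fold change of 0.04. The share that passed, 45.0%, was near the 48.2% of all genes tested. RPF1, of the Brix family of rRNA-binding proteins, had 3177, 5516 and 3389 normalized counts in WT replicates 1 to 3 and 1733, 1672 and 1941 in KO replicates 1 to 3. No sample overlapped (log2 fold change -1.13, SE 0.22, adjusted p = 0.000721, limma). SBDS, which with the GTPase EFL1 releases the anti-association factor eIF6 from new large subunits, is the gene mutated in most patients with Shwachman-Diamond syndrome. It had 2189, 2573 and 2402 normalized counts in WT and 1403, 1293 and 1333 in KO, without overlap (log2 fold change -0.83, SE 0.18, adjusted p = 0.00208, limma). NIP7, which binds early large-subunit precursors, had 6010, 7122 and 6665 in WT and 3944, 3604 and 3960 in KO, without overlap (log2 fold change -0.78, SE 0.19, adjusted p = 0.00391, limma). The pseudogene SBDSP1, near-identical to SBDS, had 24.6% of its level, so reads could have been split between the copies and the SBDS values are uncertain.

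NOP16, BRIX1 and RPF2, also assembly factors of the large subunit, were lower at log2 fold changes of -0.72, -0.66 and -0.49 (adjusted p = 0.0129, 0.0295 and 0.0751, limma), and for all 3 the KO samples were below the WT samples. BRIX1 belongs to the Brix family with RPF1 and RPF2. Its call was lost without KO replicate 2 (adjusted p = 0.118), and without WT replicate 2 its log2 fold change was -0.41. RPF2 lost its call without WT replicate 2 (-0.30, adjusted p = 0.179), WT replicate 3 (adjusted p = 0.11), KO replicate 1 (0.162), KO replicate 2 (0.226) or KO replicate 3 (0.167). BRIX1 and NOP16 overlap genes on the other strand that were lower in KO as well: RAD1, with 4222 to 6098 normalized counts in WT and 2665 to 2867 in KO, and HIGD2A, with 2231 to 4879 and 1032 to 1289. The library kit keeps strand, and the strand setting used for counting is not stated in any source used here.

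MDN1 gave the highest fold change of all factors. It encodes midasin, a giant AAA ATPase that strips assembly factors from large-subunit precursors, and its gene (ENSG00000112159, chromosome 6, 89642498 to 89819794, minus strand) has 102 exons and a coding length of 16788 nucleotides. MDN1 mRNA had 21975, 28054 and 17136 normalized counts in WT replicates 1 to 3 and 53994, 52632 and 67467 in KO replicates 1 to 3. All KO samples were above all WT samples, at 259% of the WT mean (log2 fold change 1.39, SE 0.23, adjusted p = 0.000197, limma). NOC2L, a carrier of large-subunit precursors, had 12237, 7757 and 5913 normalized counts in WT and 11508, 12757 and 15050 in KO, where WT replicate 1 overlapped the KO samples (log2 fold change 0.66, SE 0.25, adjusted p = 0.044, limma). The NOC2L call was lost without WT replicate 3 (adjusted p = 0.182) or KO replicate 3 (0.156). EFL1 had 1388, 1927 and 1344 in WT and 2082, 1849 and 2388 in KO, with overlap (log2 fold change 0.45, SE 0.20, adjusted p = 0.0888, limma). EFL1 passed in the full data and without WT replicate 2 (adjusted p = 0.0149), and not when WT replicate 1 (0.14), WT replicate 3 (0.207), KO replicate 1 (0.195), KO replicate 2 (0.129) or KO replicate 3 (0.341) was left out. SBDS and EFL1, which act together, thus had fold changes of opposite sign, of which the call of EFL1 rested on single samples. The stage had 5 higher mRNAs without WT replicate 1 and 1 without WT replicate 3 or KO replicate 3, against 3 in the full data. Of all genes tested 26.4%, 21.5% and 17.0% were higher in these fits, against 24.1% in the full data.

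The other large-subunit factors did not pass. PES1, BOP1 and WDR12, which form 1 complex, had log2 fold changes of 0.17, 0.12 and -0.07, that of PES1 being uncertain because its pseudogenes sum to 7.18% of its level. NOC3L, the partner of NOC2L, was at -0.42 and GNL3 and GNL2, nucleolar GTPases, at -0.34 and 0.05. LAS1L, the nuclease of the internal spacer, was at 0.35 and the ATPase NVL at 0.03. RRS1, which brings in the 5S particle with RPF2, was at 0.08 and RRP1 at 0.39. NOP2, an rRNA methyltransferase, was at 0.09 and had by far the lowest level, with 129, 90.5 and 130 normalized counts in WT and 108, 139 and 123 in KO. NOP2 shares its span on the same strand with another gene annotated as protein-coding, which had 0 to 2.04 normalized counts. How reads in such shared spans were assigned was not tested, so the level and fold change of NOP2 are uncertain.

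The nucleolar chaperones went in opposite directions. NPM1 (nucleophosmin; chromosome 5, 171387116 to 171411810, plus strand) had 104692, 193924 and 125306 normalized counts in WT replicates 1 to 3 and 75071, 75061 and 92737 in KO replicates 1 to 3. All KO samples were below all WT samples, with WT replicate 2 highest (log2 fold change -0.76, SE 0.25, adjusted p = 0.0232, limma). Without WT replicate 2 it was at -0.51 (adjusted p = 0.0435, limma). Without KO replicate 1 NPM1 no longer passed (-0.71, adjusted p = 0.1002), and with library total scaling it was at -0.44 (adjusted p = 0.144). Its 49 annotated pseudogene loci together had 0.409% of its level. NCL (nucleolin) had 36930, 55328 and 34702 normalized counts in WT and 50344, 55188 and 80021 in KO, with WT replicate 2 within the KO range (log2 fold change 0.55, SE 0.25, adjusted p = 0.0894, limma). NCL did not pass without WT replicate 1 (adjusted p = 0.225), WT replicate 3 (0.217), KO replicate 2 (0.14) or KO replicate 3 (0.404).

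Per kilobase of transcript, mean levels of the 59 mRNAs spanned from 44.1 normalized counts per kilobase for NOP2 in WT to 107051 for NPM1 in WT (46.5 and 61331 in KO). The level of NOP2 is uncertain because of the shared span given above, so the lower end is not firm. After NPM1 the highest WT levels per kilobase were those of NOP10 (14427, against 2241 in KO), FBL (11534, against 10182), NCL (10785, against 15762) and NOP16 (10769, against 6395). The WT mean of NOP10 rested on WT replicates 1 and 3, its count in WT replicate 2 being less than that of either, so its place in this order is not firm.

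A property the choice of factors did not use, the length of the coding sequence, ran parallel to these differences. Across the 59 genes the log2 fold change correlated with log10 coding length at Pearson's r = 0.80 and with coding length at Spearman's rho = 0.72, a description across genes that share the same 6 libraries and are not independent replicates. Without the shortest and the longest, NOP10 and MDN1, r was 0.71 (n = 57). Over all 11866 protein-coding genes tested r was 0.45 and rho 0.52, and over the 89 further pathway genes r was 0.74. Length of the untranslated parts gave a rho of -0.08 over the 59. Of the 16 factors with at most 1000 coding nucleotides, 11 were lower and 0 higher, with a median log2 fold change of -0.77, whereas of all protein-coding genes of that length 51.8% were lower, with a median of -0.53. From 1001 to 1500 nucleotides 2 of 10 factors were lower (median -0.04), near the 23.3% of all protein-coding genes of that length. From 1501 to 2000 none of 11 passed (median -0.07), where 14.3% of protein-coding genes were lower and 22.1% higher. From 2001 to 3000 nucleotides 4 of 15 were higher (median 0.09, against 34.5% of protein-coding genes), and above 3000, 3 of 7 (median 0.36, against 0.59 and 57.0% higher among all protein-coding genes of that length). All 13 lower factors had coding sequences of at most 1500 nucleotides and all 7 higher ones more than 2000. The further factor that edgeR and DESeq2 called lower, NOC3L, has 2400.

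**Figure D3:**
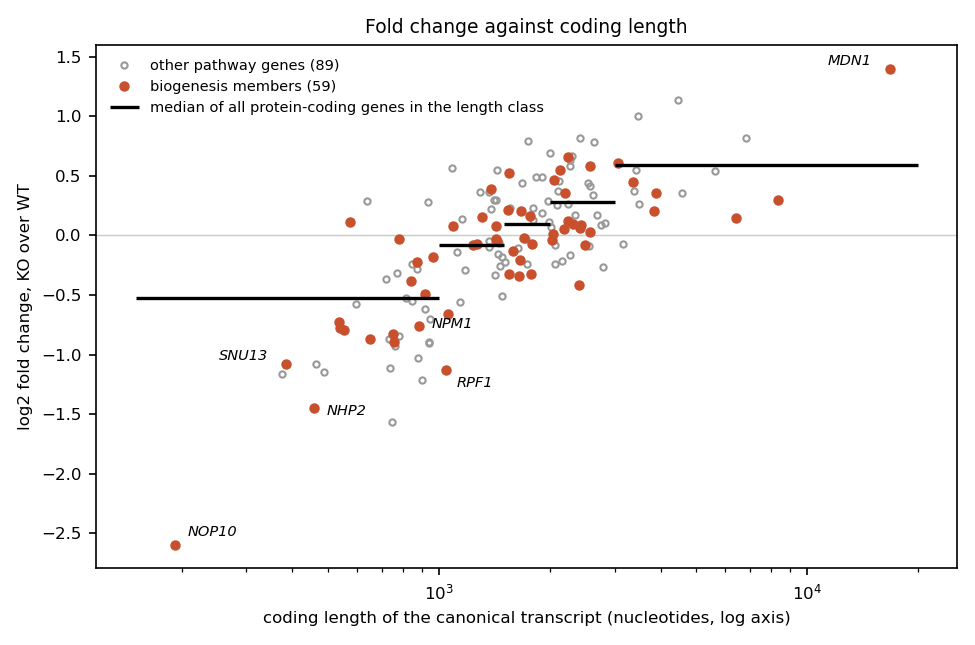
Log2 fold change (KO over WT) against coding length in nucleotides (log axis) for the 59 biogenesis factors (filled) and 89 further pathway genes (open), with black lines at the median of all protein-coding genes in each of 5 length classes. Short coding sequences such as NOP10 (192 nucleotides) lie at the bottom left and MDN1 (16788 nucleotides) at the top right.

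A correction was run for transcript length, not for coding length. With log10 transcript length the log2 fold change correlated at Pearson's r = 0.63 over the 59 factors and 0.33 over all protein-coding genes tested. How much of the trend with coding length the correction removes was not tested. With this correction within each sample, 15 factors were lower and 9 higher, with a background of 24.3% lower and 24.4% higher (48.7% either way) over all genes. Of the 13 lower factors 11 were shared, with UTP15, RRP7A, WDR12 and NOC3L added, while BRIX1 (-0.44, adjusted p = 0.163) and NPM1 (-0.48, adjusted p = 0.157) no longer passed. All 7 higher factors were shared, and NOC4L and LAS1L were added. NOP10 was then at -2.47, NHP2 at -1.17 and SNU13 at -0.83. Several other called values moved by more than 1.5 times: GAR1 from -0.87 to -0.56, IMP3 from -0.80 to -0.49, NOP16 from -0.72 to -0.42 and MDN1 from 1.39 to 0.79 (adjusted p = 0.0478, 0.0393, 0.0592 and 0.00456, limma).

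Further genes of the pathway, chosen from textbook knowledge, gave 19 lower, 18 higher and 52 not passing of 89, with a median log2 fold change of 0.09. The share that passed was 41.6%, against 48.2% of all genes. UTP23, needed for the release of an H/ACA guide RNA in yeast, had 1462, 1740 and 2159 normalized counts in WT replicates 1 to 3 and 642, 587 and 560 in KO replicates 1 to 3 (log2 fold change -1.57, SE 0.20, adjusted p = 1.64e-05, limma). MAK16, an early large-subunit factor, and TRMT112, an activator of rRNA methyltransferases, followed at -1.21 and -1.17, and in all 3 the KO samples were below the WT samples. At the other end stood TCOF1, the treacle protein of rRNA transcription, with 7453, 6462 and 4261 normalized counts in WT and 11120, 12657 and 15519 in KO (log2 fold change 1.14, SE 0.23, adjusted p = 0.00114, limma). DHX37, the helicase that takes U3 off the precursor, was at 1.00 without overlap. TBL3, of the UTP-B complex, was at 0.82 with overlap, and did not pass without WT replicate 3 (0.57, adjusted p = 0.136) or with the correction for transcript length (0.58, adjusted p = 0.145). The number of further pathway genes called higher was 10 without WT replicate 3, 9 without KO replicate 2 and 7 without KO replicate 3, where 21.5%, 17.1% and 17.0% of all genes were higher. In the same length classes, 17 of the 23 genes with at most 1000 coding nucleotides were lower, against 51.8% of all protein-coding genes of that length. Above 3000 nucleotides 5 of the 9 were higher, near the 57.0% of all protein-coding genes of that length.

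**Figure D4:**
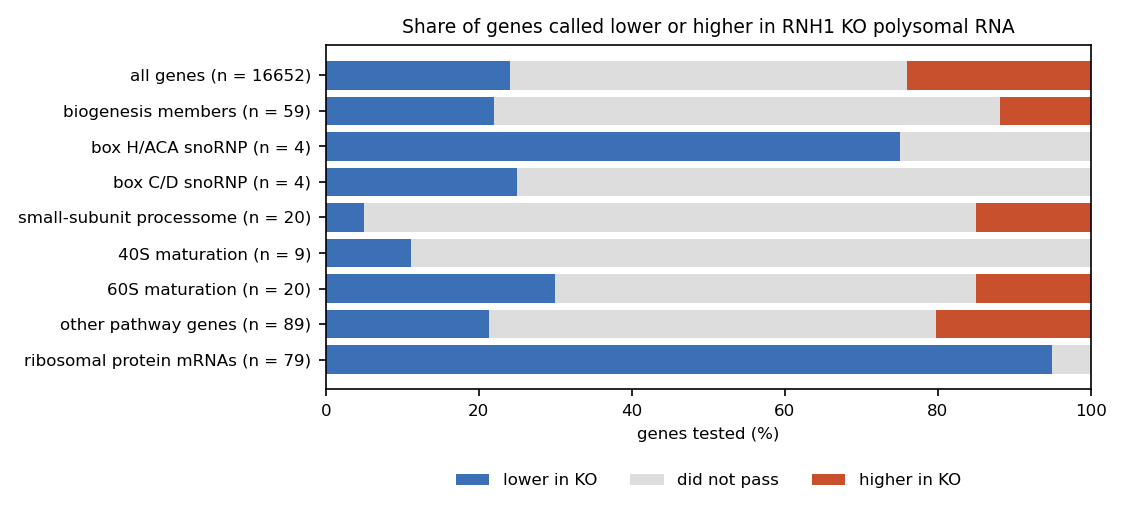
Share of genes (percent of those tested) called lower or higher in RNH1 KO polysomal RNA, for all genes, the 59 biogenesis factors, their 5 stages with at least 4 members, the 89 further pathway genes and the 79 ribosomal protein mRNAs. Box H/ACA proteins (3 of 4) and ribosomal protein mRNAs (75 of 79) have the longest bars for lower genes, and in the 4 other stages drawn most members did not pass. The groups were not matched for coding length.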

How the data were processed

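The measurements are RNA-seq of polysome fractions from 3 RNH1 WT and 3 RNH1 KO K562 samples. Per the paper and the submitters' processing notes, the authors used stranded total RNA libraries, mapped them to GRCh38 with HISAT2 2.2.1 and counted reads per Ensembl gene with featureCounts 2.0.1, before DESeq2 1.36.0 (the paper lists other versions). The deposited signal used here is these counts divided by 1 DESeq2 size factor per sample. In every sample 100% of nonzero values were whole multiples of 1 read (tolerance 1e-06). Also deposited by the authors, and not used, were group means, a test statistic (a score), log2 fold changes and p-values, and 0 sample columns were left unmapped.

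Genes with a mean of at least 10 (16652) were compared with limma 3.58.1 (trend, robust; R 4.3.3) on log2(value + 1), pseudocount 1, genotype as the only term, two-sided, with Benjamini-Hochberg adjusted p under 0.1. The fold change of low genes is understated on this scale. The design allowed for counts or normalized values, and the second applied. Recovered reads were tested with edgeR 4.0.16 and DESeq2 1.42.0 as alternatives, beside other pseudocounts, filters, scalings, a length correction, a replicate block and leaving out each sample. The tests were first checked on simulated data in which few genes changed and no trend with length was built in. The data here differ in both, so that check does not vouch for the calls. Counting floors of 3 reads cover counting error only. Lengths, spans and overlaps are of GENCODE 44 canonical transcripts, promoters of RefSeq. The labels give no batch. Analyses used Python 3.11.15.

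The members and lists were chosen with earlier results of these data known. Named were the snoRNP core genes, NCL, NPM1 and RNH1, in each other stage and among further pathway genes the 3 called genes with the largest decrease and the 3 with the largest increase, and every member that did not pass. NOP16, BRIX1 and RPF2 and the ribosomal protein list were added after the values were seen.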

Additional observations from a re-analysis of the deposited data

How the results depend on the processing

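The alternatives were a pseudocount of 0.5 or 5, no filter or a mean of at least 50, 3 other scalings (upper quartile, library total, TMM), edgeR or DESeq2 on the recovered reads, each of the 6 samples left out, a replicate block and a correction for transcript length with and without it. No called value changed sign. NOP10, NHP2, GAR1, SNU13, PNO1, SBDS, RPF1, NIP7 and MDN1 passed under all 18. Both edgeR and DESeq2 called 14 factors lower (the 13, and NOC3L) and the 7 higher. Library total scaling moved the most: 19 factors higher (median 0.30), 1 H/ACA gene higher, a C/D median of 0.072, 8 processome genes higher (median 0.37), 3 of the 40S genes higher (median 0.30), 3 of the 60S genes lower and 6 higher (median 0.36), 0 chaperones lower, 12 further pathway genes lower and 42 higher (median 0.42), and 2419 of all genes lower and 6618 higher (median 0.35). As shares of all genes, 14.5% were lower and 39.7% higher under library total scaling. The median of all genes was 0.13 with no filter, -0.026 at a mean of at least 50, 0.092 with upper-quartile scaling, -0.021 with edgeR and -0.0082 with DESeq2. With the length correction, also with the block, the C/D median was -0.078 and 0 chaperones were lower, and without the block 3 processome genes were lower. With 1 sample left out, the higher calls ranged from 1 to 9 for the factors, 0 to 1 for H/ACA, 0 to 4 for the processome, 0 to 1 for the 40S stage, 1 to 5 for the 60S stage, 0 to 1 for the chaperones and 7 to 25 for the further pathway genes. Lower calls ranged from 1 to 2 for the processome and 0 to 1 for the chaperones, and the 40S median from -0.085 to 0.13. In the same fits the share of all genes called higher ranged from 17.0% to 27.0%, and the share called lower from 18.3% to 26.2%. The causes of these moves were not tested.

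WT and KO samples share replicate numbers 1 to 3, and no source used here says whether the numbers pair samples. The deviations of same-numbered samples from their group means correlated at -0.163, -0.192 and -0.268, and none correlated best with its own number. With 3 samples a group, such correlations cannot decide whether same-numbered samples were handled together. With the replicate number as a block, 12 factors were lower and 4 higher (19.9% and 19.5% of all genes), IMP3 and NOP16 did not pass if the length correction was added (adjusted p = 0.107 and 0.185), 0 chaperones were higher (also with the length correction), and 9 further pathway genes were higher. With 3 samples a group, smaller differences than those called could not be told from the spread, above all in WT.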

Other observations

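Several of the factors host box C/D snoRNAs in their introns, and these were listed at low levels in the same polysomal RNA. Of the snoRNAs in NOP58, SNORD70 had 42.8, 27.8 and 71.4 normalized counts in WT replicates 1 to 3 and 42.5, 39.8 and 34.4 in KO replicates 1 to 3, and SNORD11 had 38.6, 31.8 and 98.6 in WT and 83.1, 87.7 and 94.7 in KO. WT replicate 3 was the highest sample of both. SNORD19C, in GNL3, had 33.4, 35.8 and 114 in WT and 45.2, 51.0 and 35.3 in KO, again with WT replicate 3 highest. SNORD53, in WDR43, had 9.39, 14.9 and 26.1 in WT and 37.8, 33.6 and 41.3 in KO, where all KO samples were above all WT samples. The snoRNAs of NOP56 named SNORD110, SNORD86, SNORD56 and SNORD57 were listed at 0 in all 6 samples. These snoRNAs were picked after their values were seen, and no test is given for them. Reads from such a snoRNA and from an unspliced host intron cannot be told apart here.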
